A study of Mus musculus with 4 samples.

Results

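Scn1a, Scn2a, Scn3a and Scn8a encode 4 pore-forming alpha subunits of the voltage-gated sodium channels of the brain (Nav1.1, Nav1.2, Nav1.3 and Nav1.6), and Hcn2, Hcn3 and Hcn4 encode 3 subunits of the hyperpolarization-activated HCN channels that carry the pacemaker current. These 7 genes were taken by symbol from the 32285 genes of the count tables, and all 7 were present in each of the 4 tables. They were described by UMIs (unique molecular identifiers, 1 per captured RNA molecule) in single-nucleus RNA-seq of adult mouse cortex. The 2 groups were wild-type C57BL/6J mice. One group received the antipsychotic risperidone at 4 mg/kg by daily intraperitoneal injection and the other group saline, in both cases from postnatal day (PND) 22 for 21 days. A drug-free period followed until tissue was taken at PND 90. The labels put it at 43 days, fewer than lie between the last injection and PND 90. For each condition, the right-side cortex of 5 males and 5 females was combined into 1 pool before nuclei were isolated and sorted by DAPI, and the pool was loaded on 2 lanes of a Chromium chip. Each condition therefore has n = 1 pool, the 2 lanes are technical repeats of the same nuclei suspension, and no test between conditions was possible. Lane values are given for lane 1 and lane 2 of the saline pool and then for those of the risperidone pool. All intervals given cover counting error only.

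Sodium channel alpha subunits open on depolarization and carry the inward current of the action potential. Nav1.1 is known as the main alpha subunit of fast-spiking parvalbumin interneurons, Nav1.2 and Nav1.6 share the axon initial segment of pyramidal neurons, where Nav1.6 holds the distal part with the lowest threshold, and Nav1.3 is most abundant in the embryonic and early postnatal brain. HCN channels open on hyperpolarization, pass a mixed sodium and potassium current and set resting potential, dendritic integration and rhythmic firing. HCN2 is widespread in the brain, HCN4 is the main subunit of the cardiac pacemaker, and HCN3 is scarce in most of the forebrain.

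The promoter windows of 3 members are shown because Scn1a and Scn8a, of the members at 10 counts per 1000000 UMIs (CPM) or more, differed most between the pools in glutamatergic neurons, in opposite directions, and Hcn2 was the only HCN member above that level. RefSeq windows on GRCm38.p6 matched 5 of the 7 members with 7 windows (Scn2a and Scn8a with 2 starts each), each running from 250 bases before to 50 bases after a transcript start. The 4 motifs searched on both strands were the GC box GGGCGG, the TATA box with the letters TATAAA, the CCAAT box, and the core of the cAMP response element with the letters TGACG. Capitals mark the matches, adjacent GC boxes run together, and each sequence is written 5′ to 3′ on the strand of its gene.
Scn1a, chr2:66440788-66441087, minus strand: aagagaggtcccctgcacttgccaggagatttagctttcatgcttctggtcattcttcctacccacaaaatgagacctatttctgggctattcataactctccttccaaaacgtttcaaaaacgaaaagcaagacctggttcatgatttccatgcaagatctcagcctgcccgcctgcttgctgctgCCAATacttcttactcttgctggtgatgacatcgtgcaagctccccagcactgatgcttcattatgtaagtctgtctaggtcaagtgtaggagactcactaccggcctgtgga
Scn8a, chr15:100870395-100870694, plus strand: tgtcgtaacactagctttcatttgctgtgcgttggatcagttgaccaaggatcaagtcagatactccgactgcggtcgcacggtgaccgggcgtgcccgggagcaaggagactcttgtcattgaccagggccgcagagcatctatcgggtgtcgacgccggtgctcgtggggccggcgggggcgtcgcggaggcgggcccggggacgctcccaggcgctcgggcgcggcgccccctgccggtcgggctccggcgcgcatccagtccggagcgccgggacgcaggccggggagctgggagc
Hcn2, chr10:79716384-79716683, plus strand: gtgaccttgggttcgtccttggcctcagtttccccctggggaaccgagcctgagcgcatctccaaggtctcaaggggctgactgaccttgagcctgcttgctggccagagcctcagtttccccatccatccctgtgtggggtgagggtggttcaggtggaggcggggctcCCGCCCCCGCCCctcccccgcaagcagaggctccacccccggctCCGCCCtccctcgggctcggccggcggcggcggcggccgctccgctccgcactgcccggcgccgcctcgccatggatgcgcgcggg
The Scn1a window held 1 CCAAT and was 47.3% G or C. The upstream Scn8a window held none of the 4 motifs at 70% G or C, and the Hcn2 window held 3 GC boxes at 72.3%. Over all 32851 windows of the same length, 35.7% held the GC box, 13.6% the TATA box, 37.4% the CCAAT box and 20.8% the response element core, and the median G or C content was 52.7%. A match is a description of the letters and not of binding.

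On GRCm38, Scn3a (chr2:65457118-65567627, minus strand), Scn2a (chr2:65620771-65767447, plus strand) and Scn1a (chr2:66270778-66440840, minus strand) lie in 1 cluster on chromosome 2. Scn8a lies at chr15:100869858-101045938, plus strand, Hcn2 at chr10:79716634-79736108, plus strand, Hcn3 at chr3:89146074-89160196, minus strand and Hcn4 at chr9:58823412-58863175, plus strand. The sodium channel genes span 111 to 176 kb and the HCN members 14.1 to 39.8 kb, and intronic reads were counted, so levels of different genes are set side by side only as CPM per kb of gene span. Annotated genes overlap 3 members, all on the opposite strand, and were counted separately by strand. Gm13630, inside Scn1a, had 298 and 404 UMIs (saline) and 739 and 908 (risperidone) over all nuclei, a log2 ratio of 0.62 at a mean of 4.15 CPM. Gm13595, inside Scn3a, had 2, 5, 23 and 24 UMIs in the same order. Pklr, which overlaps the end of Hcn3, had 3, 3, 3 and 8.

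After filters and removal of doublet-like nuclei, 96553 nuclei remained. The lanes differed in depth with the pool: the tables held 119736937 and 147909049 UMIs for saline, and for risperidone 168537139 and 203675013, with median UMIs per nucleus of 3297 and 4049 against 5648 and 7765.5. Any pair of lanes shared 160 to 221 cell barcodes. Nuclei were given 11 classes and, within the glutamatergic class, 8 layer types from marker UMIs of each nucleus and its neighbours. A class name stands for nuclei like that type by those markers, and 16.3% of nuclei had no class. IT, ET, NP and CT stand for intratelencephalic, extratelencephalic, near-projecting and corticothalamic neurons, and IN for interneurons. The largest neuronal classes were glutamatergic neurons (54033 nuclei), parvalbumin (PV) INs (2826) and somatostatin (Sst) INs (2330). RNA of other nuclei, estimated from markers that a class should lack, was 29.6% and 28.2% (saline) against 20.7% and 20.6% (risperidone) of the UMIs of glutamatergic neurons. It was 37.3% and 32.5% (saline) against 29.4% and 25.1% (risperidone) in PV-INs and 31.4% and 29.3% (saline) against 18.4% and 17.9% (risperidone) in Sst-INs. Summed over whole marker lists, glutamatergic neurons held astrocyte markers (5 of 5 with UMIs in all lanes) at 40.7 and 38.2 CPM (saline) and 23.9 and 21.0 (risperidone), and oligodendrocyte markers (6 of 6) at 200.3 and 189 (saline) and 128 and 123 (risperidone). GABAergic markers (5 of 5) were at 272 and 262 (saline) and 108 and 104 (risperidone). The estimate in glutamatergic neurons, PV-INs and Sst-INs and these marker sums in glutamatergic neurons were thus lower in the risperidone lanes, and beyond the subtraction given beside the ratios their part in them was not tested. In the astrocyte, oligodendrocyte, precursor (OPC), microglia and vascular classes the estimate lay between 49.6% and 95%, at the ceiling set for it in 4 of 4 microglia lanes, so member UMIs in those classes are given only briefly.

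Over all nuclei, Scn8a had 234086 UMIs, Scn2a 200984, Scn1a 151451 and Scn3a 55562. The HCN members had far fewer, with 10193 for Hcn2, 2250 for Hcn3 and 801 for Hcn4. Per kb of gene span and over all nuclei, the mean levels were 2.52 CPM for Scn2a, 2.50 for Scn8a, 1.61 for Scn1a, 0.958 for Hcn2, 0.913 for Scn3a, 0.301 for Hcn3 and 0.0386 for Hcn4. On this scale Hcn2 stood beside Scn3a, whereas Hcn4 was the lowest of the 7.

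Scn1a, the Nav1.1 gene, was highest in PV-INs in 4 of 4 lanes, at 464 and 459.9 (saline) and 616 and 596 (risperidone) (CPM of the type, as are all levels below). Lamp5-INs followed at 407 and 388 (saline) and 504 and 497 (risperidone). L5 ET neurons were next by their mean, at 308 and 349 (saline) and 441 and 448 (risperidone). At the low end, claustrum-like neurons held 148 and 149.8 (saline) and 181 and 159 (risperidone) and were lowest in 4 of 4 lanes. The mean of the 4 lanes was thus 3.35 times as high in PV-INs as in claustrum-like neurons, and 3.07 to 3.75 times in single lanes. Among the 12 neuronal types (8 layer types and 4 IN types) ordered by their mean, L4/5 IT (364), Sst-IN (313), Vip-IN (312), L5/6 NP (298), L6 CT (253), L2/3 IT (244), deep IT (238) and L6b (178) lay between. Lane ranges of every pair of neighbours in this order overlapped except deep IT and L6b, where a range takes in the lanes of both pools. Within lanes, PV-INs exceeded Lamp5-INs in 4 of 4. With the RNA of other nuclei subtracted, the order of all 12 was the same and the PV-IN mean was 650.1 CPM against 124 in claustrum-like neurons.

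**Figure D1:**
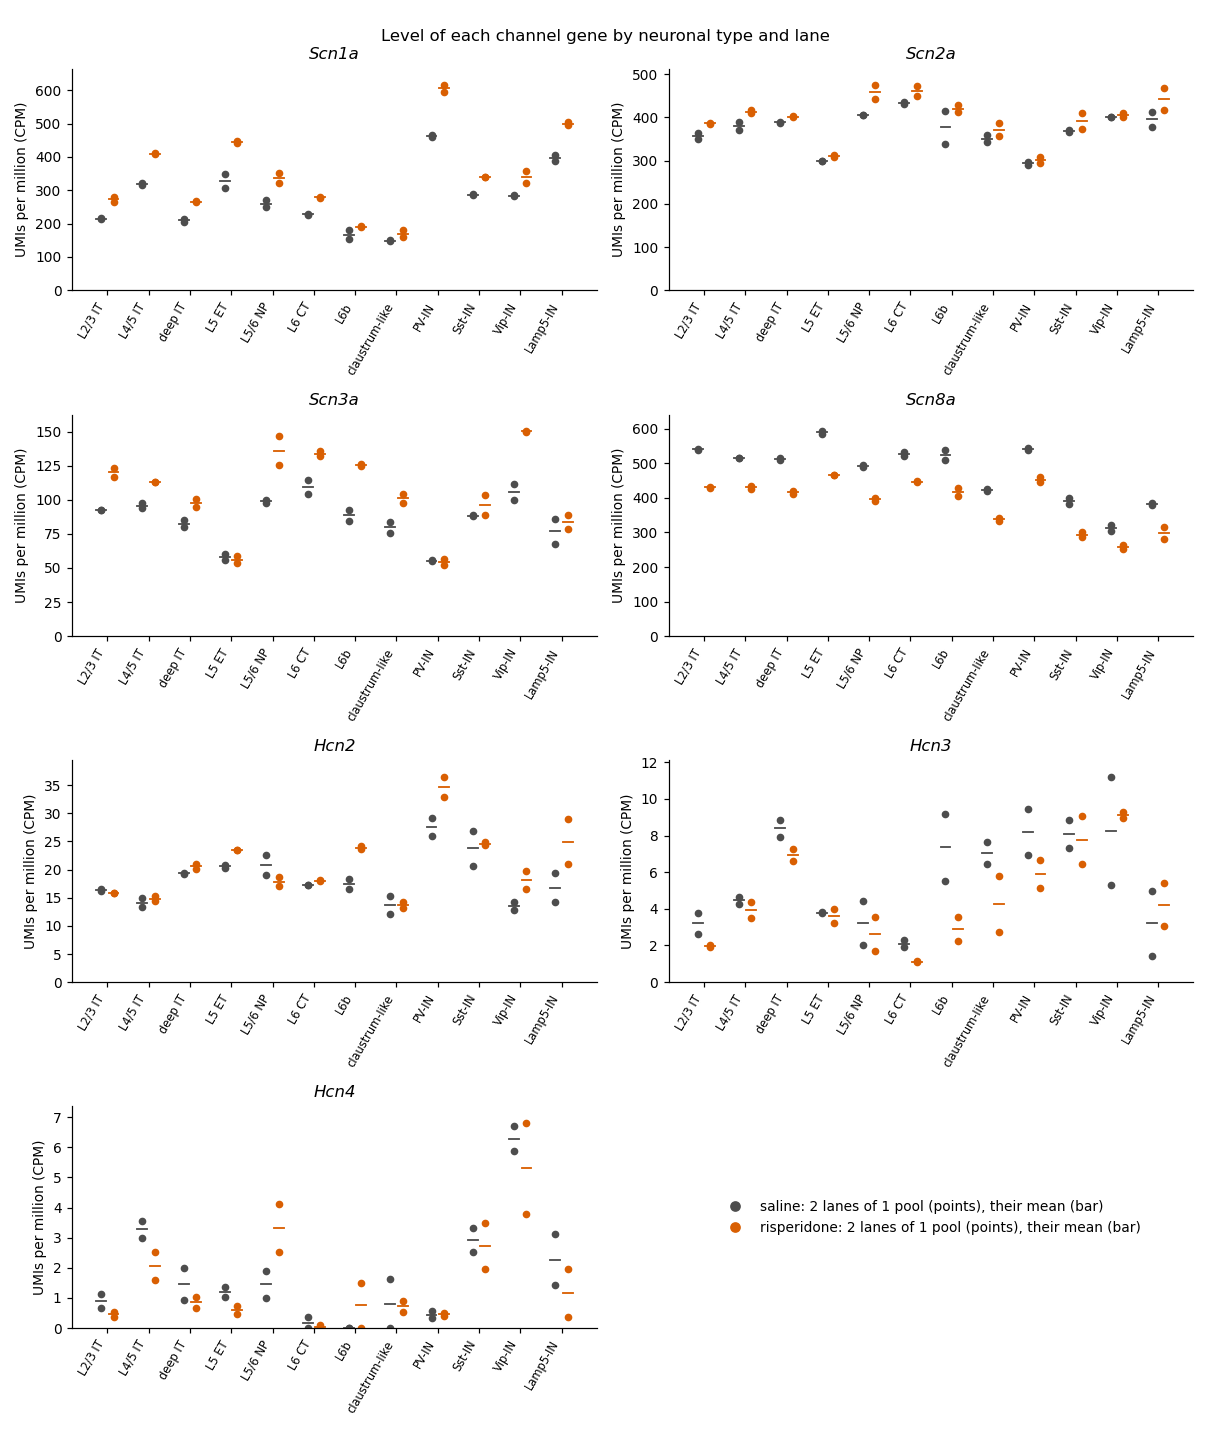
Level of each of the 7 channel genes (vertical axes, CPM of the type, each starting at 0) in 8 glutamatergic layer types and 4 IN types (horizontal axes); points are the 2 lanes of each pool and bars their mean. Scn1a peaks in PV-INs while the means of Scn2a and Scn3a are lowest there, and the risperidone lanes lie above the saline lanes for Scn1a and below them for Scn8a in all 12 types.

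Scn2a, the Nav1.2 gene, varied least. Its highest mean was in L6 CT neurons, at 430.2 and 437 (saline) and 472 and 450.4 (risperidone). Its lowest was in PV-INs, at 297 and 290.4 (saline) and 309 and 296 (risperidone), with L5 ET neurons next at 299.5 and 299 (saline) and 309 and 313 (risperidone). The L6 CT level was 1.45 to 1.53 times the PV-IN level in the 4 lanes, and the lane ranges of PV-IN and L5 ET overlapped each other and lay below those of the other 10 types. PV-INs, where Scn1a peaked, thus held the lowest mean of Scn2a and also of Scn3a.

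Scn3a, the Nav1.3 gene, was lowest in PV-INs in 4 of 4 lanes, at 54.8 and 55.6 (saline) and 56.2 and 52.4 (risperidone), with L5 ET neurons next at 55.7 and 60.6 (saline) and 58.8 and 53.3 (risperidone). Its highest neuronal mean was in Vip-INs, at 111 and 99.6 (saline) and 150.5 and 149.9 (risperidone). L6 CT (122) and L5/6 NP (117) followed, with ranges that overlapped that of Vip-INs. Striatal-type spiny projection nuclei had more Scn3a than any of the 12 types by their mean, at 132 and 145 (saline) and 198 and 201 (risperidone).

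Scn8a, the Nav1.6 gene, was highest in L5 ET neurons in 4 of 4 lanes, at 594 and 585 (saline) and 466 and 465 (risperidone), and lowest in Vip-INs in 4 of 4 lanes, at 304 and 321 (saline) and 264 and 253 (risperidone). PV-INs were second by their mean but not in every lane, at 543 and 537 (saline) and 459 and 445 (risperidone). The other IN types stood apart from PV-INs within each pool: Sst-INs held 383 and 399 (saline) and 301 and 287 (risperidone) and Lamp5-INs 385 and 379 (saline) and 281 and 317 (risperidone). The remaining 7 layer types had means from 380.2 (claustrum-like) to 487 (L6 CT), and all neighbours in the order overlapped in lane range.

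Of the HCN members, Hcn2 was highest in PV-INs by its mean, at 26.0 and 29.2 (saline) and 32.9 and 36.5 (risperidone), which rests on 182 saline and 313 risperidone UMIs. Sst-INs followed at 26.9 and 20.6 (saline) and 24.4 and 24.9 (risperidone), and their range overlapped that of PV-INs. In the order of the 12 neuronal types only L6 CT (17.6) and L2/3 IT (16.1) were neighbours without overlap. Claustrum-like neurons were lowest by their mean, at 15.3 and 12.1 (saline) and 13.2 and 14.2 (risperidone). The oligodendrocyte class held 27.0 and 22.8 (saline) and 30.8 and 35.8 (risperidone), below PV-INs in 3 of 4 lanes, with an estimated 85.6% to 95% of RNA from other nuclei. Hcn3 and Hcn4 stayed under the filter of 10 CPM in every type. Hcn3 had its highest mean in Vip-INs (8.69) and its lowest in L6 CT neurons (1.61, from 32 saline and 20 risperidone UMIs), and deep IT neurons, at 8.86 and 7.92 (saline) and 7.29 and 6.61 (risperidone), lay above every other layer type by mean. Hcn4 was at 6.72 and 5.86 (saline) and 6.81 and 3.78 (risperidone) in Vip-INs, a lane range above that of the next type by mean (Sst-INs, 1.96 to 3.48) but overlapping that of L5/6 NP neurons (1.01 to 4.12). In PV-INs, Hcn4 had 3 saline and 4 risperidone UMIs in all.

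The study asked what adolescent risperidone leaves behind in the adult cortex, and the 2 pools were therefore compared gene by gene within each type. Scn1a was higher and Scn8a lower in the risperidone pool in each of the 12 neuronal types, Scn3a was higher in most, and Scn2a and Hcn2 had ratios on both sides of 0. None of the 5 members at 10 CPM or more met the size rule (absolute log2 ratio of at least 0.5, mean of at least 10 CPM and both risperidone lanes beyond both saline lanes) in glutamatergic neurons, PV-INs or Sst-INs. Of all genes at 10 CPM or more, 7.11% met the rule as lower and 4.16% as higher in glutamatergic neurons. For PV-INs these shares were 7.22% and 6.22%, and for Sst-INs 6.74% and 6.51%. The median log2 ratio of the 5 members was -0.00047 in glutamatergic neurons, -0.053 in PV-INs and 0.013 in Sst-INs, against -0.016, -0.022 and -0.0049 over all genes measured. Lanes that do not overlap between pools were common and mark little by themselves: 89.5% of all genes measured did not overlap in glutamatergic neurons, 66.8% for PV-INs and 63.1% for Sst-INs.

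In glutamatergic neurons Scn1a was at 236 and 241 (saline) and 303 and 306 (risperidone). Ratios are log2 of risperidone to saline, scaled by TMM factors unless another scaling is named, with a 95% counting interval in parentheses. The Scn1a ratio in glutamatergic neurons was 0.27 (0.25 to 0.29), which is above 84.3% of the genes measured. In PV-INs the ratio was 0.29 (0.23 to 0.36) and in Sst-INs 0.17 (0.078 to 0.27). Over the 12 neuronal types it ran from 0.12 (claustrum-like) to 0.35 (L5 ET) and was above 0 in 12 of 12. Its counting interval lay above 0 in 10, and the exceptions were L6b and claustrum-like neurons. The share of all genes whose interval left out 0 was not counted, here or for the members below. With the RNA of other nuclei subtracted, the ratio was 0.28 in glutamatergic neurons, 0.22 in PV-INs and 0.091 in Sst-INs. With only glutamatergic nuclei of at least 2000 UMIs it was 0.27. In the 5 glial and vascular classes the Scn1a ratio was between 0.054 and 0.46, above 0 in 5 of 5. The interval included 0 in astrocytes (-0.060 to 0.17) and the vascular class (-0.055 to 0.47). In astrocytes the ratio was -0.40 with the RNA of other nuclei subtracted. With classes from clusters it was -0.56 in astrocytes and above 0 in the other glial and vascular classes.

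Scn8a differed the other way. Glutamatergic neurons held 525 and 523 (saline) and 428 and 426 (risperidone), a log2 ratio of -0.38 (-0.39 to -0.36), below all but 13.3% of the genes measured. The ratio was -0.35 (-0.42 to -0.29) in PV-INs and -0.48 (-0.57 to -0.39) in Sst-INs, just short of the size rule. In Sst-INs the ratio met the rule under DESeq2 size factors (-0.51), with classes from clusters (-0.51), in female nuclei (-0.60) and without the first saline lane (-0.52). Over the 12 neuronal types it lay between -0.48 (Sst-IN) and -0.30 (L6 CT), with an interval below 0 in 12 of 12 and no overlap between the lanes of the pools in any. By the same measure, lanes did not overlap for 81.9% of all genes measured in L2/3 IT, 72.2% in L4/5 IT, 75.6% in deep IT, 69.7% in L5 ET, 57.4% in L5/6 NP, 74.9% in L6 CT, 54.5% in L6b and 56.9% in claustrum-like neurons, and for 53.6% in Vip-INs and 57.9% in Lamp5-INs. These shares take in genes higher and genes lower in the risperidone pool. Within each single type, most genes measured thus had no overlap, as Scn8a had. The share that did so as lower was not counted, nor the number without overlap in all 12 types. In striatal-type nuclei Scn8a met the size rule, at 423 and 436 (saline) and 305 and 313 (risperidone) and a log2 ratio of -0.54 (-0.64 to -0.45), where 9.53% of all genes met the rule as lower. It fell short of the rule there on plain CPM (-0.48) and with classes from clusters (-0.48). In striatal-type nuclei called female the ratio was -0.51, and in those called male it was -1.08. With the RNA of other nuclei subtracted, the Scn8a ratio was -0.39 in glutamatergic neurons, -0.35 for PV-INs and -0.45 for Sst-INs. In glutamatergic nuclei of at least 2000 UMIs it was -0.39. In the 5 glial and vascular classes the Scn8a ratio was between -0.49 and -0.38.

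**Figure D2:**
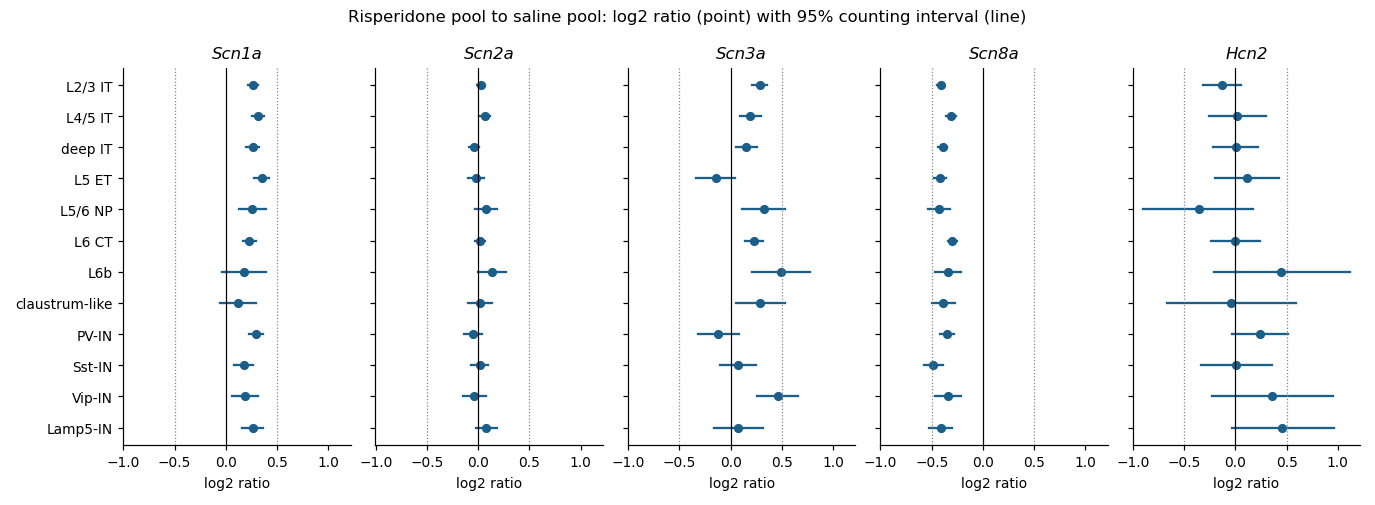
Log2 ratio of the risperidone pool to the saline pool (horizontal axes) for the 5 members at 10 CPM or more in 12 neuronal types; points are ratios of UMIs summed over 2 lanes and scaled by TMM, lines are 95% counting intervals, the solid line marks 0 and dotted lines mark ±0.5. All 12 points lie above 0 for Scn1a and below 0 for Scn8a, and those of Scn2a stay between -0.053 and 0.13.

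Scn3a was at 89.9 and 88.8 (saline) and 111 and 109.8 (risperidone) in glutamatergic neurons, a log2 ratio of 0.22 (0.19 to 0.26). Its ratio was above 0 in 10 of 12 neuronal types, with the interval above 0 in 8. The highest ratios were in L6b neurons (0.49, 0.21 to 0.78) and Vip-INs (0.46, 0.26 to 0.66). PV-INs and L5 ET neurons, the 2 types with the least Scn3a, were the 2 with a ratio below 0, at -0.12 (-0.32 to 0.077) and -0.15 (-0.34 to 0.045), and both intervals include 0. In glutamatergic neurons Scn2a had the ratio nearest 0 of the members at 10 CPM or more, on the TMM scale. It was at 375 and 377 (saline) and 400.3 and 396 (risperidone) there, a ratio of -0.00047 (-0.017 to 0.016). In PV-INs its ratio was -0.053 (-0.14 to 0.032) and in Sst-INs 0.013 (-0.072 to 0.099).

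For Hcn2 the ratio was -0.0055 (-0.084 to 0.073) in glutamatergic neurons, 0.24 (-0.031 to 0.51) in PV-INs and 0.0090 (-0.34 to 0.36) in Sst-INs. Its interval included 0 in all 12 neuronal types. In the vascular class Hcn2 met the size rule as higher on 9 saline and 28 risperidone UMIs (log2 ratio 0.89, -0.24 to 2.16), where 12.3% of all genes did. The call was lost with classes from clusters (0.059) and in male nuclei (-0.28). Hcn3 and Hcn4 were too scarce for the rule, and their ratios are descriptions of small counts. In glutamatergic neurons Hcn3 was at 4.57 and 4.50 (saline) and 3.62 and 3.49 (risperidone), a ratio of -0.44 (-0.60 to -0.27), from 590 and 662 UMIs. Hcn4 was at 1.45 and 1.53 (saline) and 0.892 and 1.02 (risperidone) there, a ratio of -0.72 (-1.02 to -0.42), from 195 and 180 UMIs. Both intervals lie below 0, and in PV-INs and Sst-INs the upper bounds were 0.0071 and 0.49 for Hcn3 and 2.64 and 0.84 for Hcn4.

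Because Scn1a and Scn8a differed in opposite directions, the make-up of the sodium channel UMIs was examined as well. The share of 1 gene among the UMIs of the 4 sodium channel members does not depend on the scaling between lanes, but it carries the gene spans and is therefore compared between types and pools only. The 4 shares add up to 100%, so a lower share of 1 gene goes with higher shares of others, and the shares are another view of the ratios above rather than a separate result. In glutamatergic neurons, Scn8a made up 42.8% and 42.6% (saline) against 34.5% and 34.4% (risperidone), and Scn1a 19.2% and 19.6% (saline) against 24.4% and 24.7% (risperidone). In PV-INs Scn1a made up 34.2% and 34.2% (saline) against 42.7% and 42.9% (risperidone), and Scn8a 39.9% and 40.0% (saline) against 31.9% and 32.1% (risperidone). PV-INs thus held the largest Scn1a share of the 12 types in both pools. L5 ET neurons had the widest difference between the pools for both genes, with Scn1a at 24.5% and 27.0% (saline) against 34.6% and 35.0% (risperidone) and Scn8a at 47.2% and 45.2% (saline) against 36.6% and 36.3% (risperidone). Over the 12 neuronal types, both risperidone lanes exceeded both saline lanes in the Scn1a share in 12 and fell short of them in the Scn8a share in 12. No background was counted for this measure. For levels, which are a different measure, 53.6% to 81.9% of genes did not overlap in a single type. The difference between the pools was 2.10 to 8.93 percentage points for Scn1a and -9.68 to -6.03 for Scn8a. With the RNA of other nuclei subtracted, both counts were again 12 of 12.

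**Figure D3:**
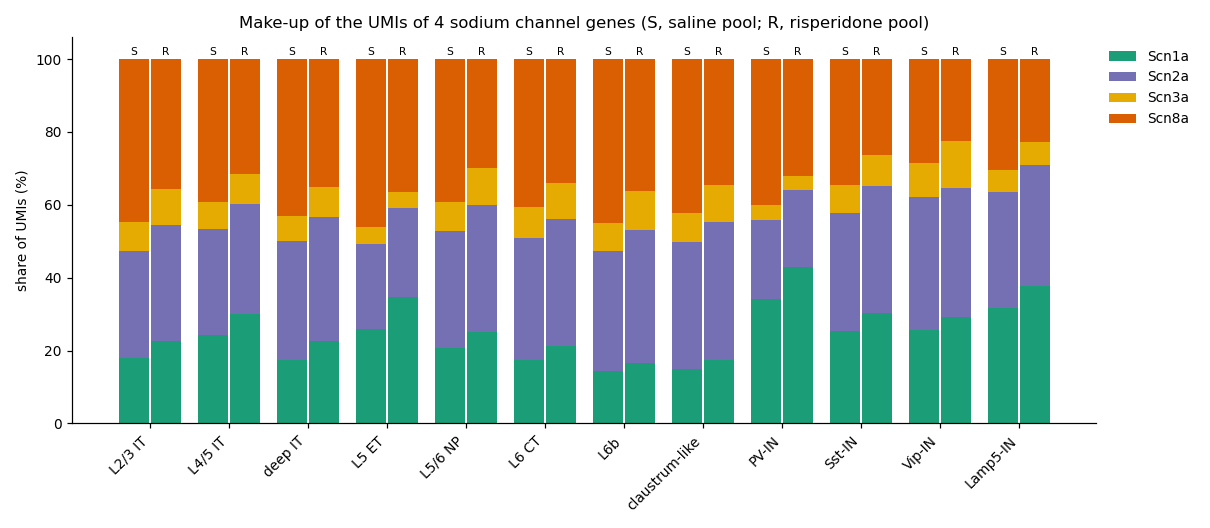
Share of each sodium channel gene among the UMIs of Scn1a, Scn2a, Scn3a and Scn8a (vertical axis, percent) in 12 neuronal types, with the 2 lanes of a pool added; S is the saline pool and R the risperidone pool. In each type the Scn8a block is smaller and the Scn1a block larger in R than in S, from 34.2% to 42.8% for Scn1a in PV-INs.

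Single nuclei were compared at equal depth by thinning each to 2000 UMIs and leaving out shallower ones. In glutamatergic neurons 2648 and 1134 saline nuclei and 156 and 116 risperidone nuclei were left out. The share of glutamatergic nuclei with an Scn8a UMI was 63.3% and 64.3% (saline) against 57.4% and 55.4% (risperidone), and unthinned 78.8% and 84.9% (saline) against 88.5% and 93.1% (risperidone). The direction was thus opposite before and after thinning and the removal of shallow nuclei. For Scn1a the thinned shares were 35.5% and 36.4% (saline) against 44.2% and 44.1% (risperidone) in glutamatergic nuclei, with 53.4% and 59.9% (saline) against 76.6% and 83.9% (risperidone) unthinned, and 56.4% and 55.4% (saline) against 66.6% and 69.3% (risperidone) in PV-IN nuclei. The microglia class was set beside these. Its estimate of RNA from other nuclei was at the ceiling, and 55.3% of its nuclei had the same name by cluster, so it may hold nuclei of other types. Its thinned shares were 31.5% and 32.9% (saline) against 36.0% and 45.1% (risperidone) for Scn1a and 58.7% and 59.5% (saline) against 52.4% and 54.6% (risperidone) for Scn8a. Its median depths lay between 3183 and 8225 UMIs, against 3383 to 8211 in glutamatergic nuclei. In the second risperidone lane the Scn1a share of the microglia class was no lower than the glutamatergic one. A UMI in a single nucleus is therefore not taken as a mark of expression here. The uncertain make-up of the microglia class limits this comparison. PV-IN nuclei exceeded microglia in the Scn1a share in 4 of 4 lanes. For the HCN members, thinned shares in PV-IN nuclei were 5.02% and 5.37% (saline) against 7.24% and 6.94% (risperidone) for Hcn2. In microglia they were 3.93% and 2.20% (saline) against 3.54% and 3.73% (risperidone).

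Nuclei were called female or male by X- and Y-linked RNA, because each pool mixed both. Among nuclei kept, 37.3% and 39.0% were called female for saline, as were 50.8% and 50.0% for risperidone. Over the lanes, 18.6% to 20.5% were called male, and the rest had no call. Each pool held equal numbers of female and male mice, yet more nuclei were called female than male in every lane. The female share was also higher in the deeper risperidone lanes. Whether the calls are right, or depend on depth or on RNA of other nuclei, was not tested. Female and male nuclei are therefore nuclei so called, and ratios split by sex carry this limit. In glutamatergic nuclei called female, Scn1a was at 218 and 216 (saline) and 305 and 306 (risperidone), a log2 ratio of 0.40. In those called male it was at 256 and 266 (saline) and 297 and 306 (risperidone), a ratio of 0.14. In this class the risperidone lanes were close between the sexes and the saline lanes differed. In L2/3 IT neurons female nuclei held 186 and 179 (saline) and 287 and 294 (risperidone) (0.60) and male nuclei 255 and 239.5 (saline) and 241 and 259 (risperidone) (-0.035). The direction of the split was not shared by all types. In L5/6 NP neurons the Scn1a ratio was 0.18 in female and 0.61 in male nuclei, in Vip-INs 0.026 and 0.26, and in deep IT neurons 0.30 and 0.30. Scn8a was lower in the risperidone pool for both, at -0.42 in female and -0.32 in male glutamatergic nuclei. In PV-INs the Scn8a ratio was -0.43 in female and -0.14 in male nuclei, and in Sst-INs -0.60 and -0.37. Glutamatergic nuclei called male were deeper than those called female in every lane. The medians were 4279 and 5189.5 UMIs against 3422 and 4220 (saline), and 6244 and 8417 against 5918.5 and 8164 (risperidone). The difference between the sexes was not tested.

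The members' partners and related channels were read from a list of 23 genes: other alpha subunits, the beta subunits, the intracellular fibroblast growth factors that bind the channel tail, the HCN partners Pex5l and Kcne2, the sodium leak channel with its subunits, and 3 proteins of the axon initial segment. In glutamatergic neurons 14 of the 23 were measured, of which 1 met the size rule as lower and 0 as higher. In PV-INs 15 were measured, with 0 lower and 1 higher, and in Sst-INs 15, with 0 in either direction. A count of 1 among 14 or 15 genes is close to the shares of all genes given above. Their median log2 ratio was -0.051, -0.11 and -0.097. The gene that met the rule in glutamatergic neurons was Sptbn4, which encodes the beta-IV spectrin that anchors channels at the axon initial segment. It was at 312 and 306 (saline) and 230.1 and 229 (risperidone), a ratio of -0.51 (-0.53 to -0.49), and fell short of the rule on plain CPM (-0.43), in male nuclei (-0.4958) and with layer types weighted equally (-0.4997). Its partners ankyrin-G (Ank3) and neurofascin (Nfasc), named after their values were seen, stood at -0.49 and -0.42 in glutamatergic neurons, and all 3 genes were below 0 in PV-INs and Sst-INs too, from -0.43 to -0.34. The lower values were not confined to neurons. The median of the 3 genes was -0.53 in each of the oligodendrocyte, microglia and vascular classes, -0.48 in astrocytes and -0.35 in OPCs. Those classes had much RNA of other nuclei by the estimate above, and the cause was not tested. In PV-INs the gene that met the rule was Scn9a, the Nav1.7 subunit best known from sensory neurons, at 11.8 and 17.8 (saline) and 47.5 and 42.6 (risperidone) and a ratio of 1.47 (1.15 to 1.81). In Sst-INs Scn9a was at 26.9 and 28.3 (saline) and 42.4 and 32.2 (risperidone), a ratio of 0.34 (0.041 to 0.65). The Scn9a difference was not confined to PV-INs. It met the rule as higher in L4/5 IT neurons too, at 8.76 and 7.92 (saline) and 17.0 and 17.6 (risperidone), a ratio of 1.01 (0.68 to 1.35). The OPC (0.83) and microglia (0.50) classes did as well. Under 10 CPM, its ratio was below 0 in L2/3 IT neurons (-0.43) and Lamp5-INs (-0.95), among others. Of the beta subunits, HCN partners and leak channel genes that were measured, none was past the rule in the 3 classes, and Scn4b and Kcne2 were under 10 CPM in all 3. Scn4a had no UMI in PV-INs or Sst-INs, and Scn10a none in Sst-INs.

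**Figure D4:**
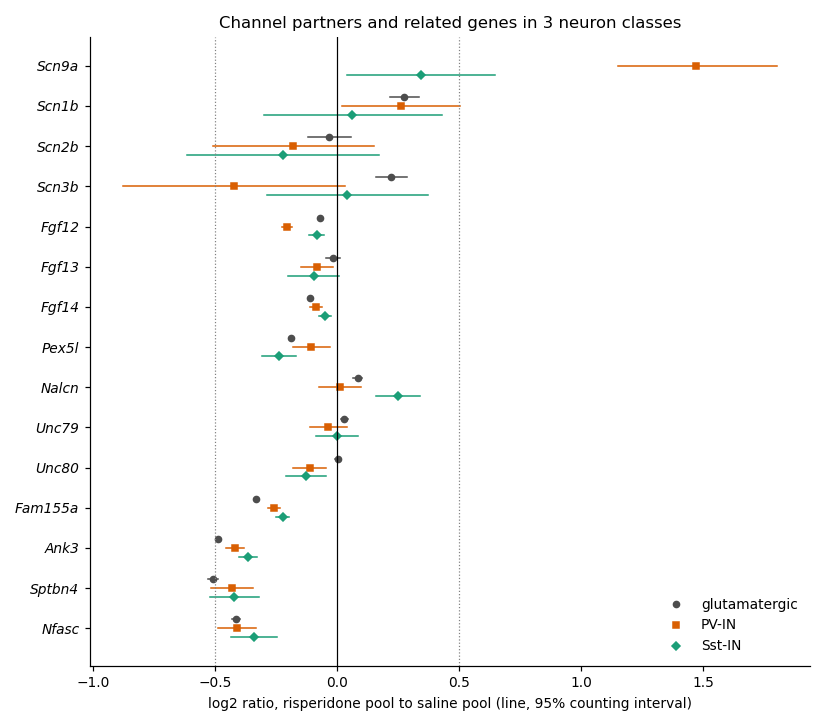
Log2 ratio of the risperidone pool to the saline pool (horizontal axis, lines are 95% counting intervals) for the genes of the related list at 10 CPM or more in glutamatergic neurons, PV-INs and Sst-INs; dotted lines mark ±0.5. Sptbn4 in glutamatergic neurons (-0.51) and Scn9a in PV-INs (1.47) are the points past the lines that met the size rule.

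Genes whose pattern over 18 types (the 12 neuronal types, striatal-type nuclei and 5 glial and vascular classes) was most like that of a member were ranked by Pearson r of log2(CPM + 1) in the saline pool among 10305 genes. The r of the saline pool is followed by that of the risperidone pool. Types share lanes and RNA of other nuclei, so r is a description. The 3 nearest genes to Scn1a were Fgf9 (r = 0.88 and 0.85), Hdx (r = 0.87 and 0.75) and Stau2 (r = 0.85 and 0.83). For Scn2a they were Vps13b (r = 0.84 and 0.81), Fam171a2 (r = 0.83 and 0.73) and Stx3 (r = 0.82 and 0.64), and for Scn3a Fzd3 (r = 0.76 and 0.68), Klhl7 (r = 0.73 and 0.43) and Zkscan16 (r = 0.73 and 0.87). Those of Scn8a were Cyfip2 (r = 0.88 and 0.82), Plec (r = 0.86 and 0.62) and Pcnx2 (r = 0.86 and 0.80), and those of Hcn2 Mgrn1 (r = 0.78 and 0.67), Sys1 (r = 0.78 and 0.58) and Rrp12 (r = 0.77 and 0.52). Hcn3 and Hcn4 were below 10 CPM in every type of the saline pool and were not ranked. No member was among the 3 nearest genes of another. Among the 5 members that were ranked, r was 0.54 and 0.33 for Hcn2 and Scn8a, the highest in the saline pool. It was 0.50 and 0.56 for Scn3a and Scn2a, the highest of these 5 in the risperidone pool.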

How the data were processed

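Single-nucleus RNA-seq libraries of adult mouse cortex came from 1 pool of 10 mice per condition, run on 2 lanes each. The authors aligned reads with Cell Ranger 8.0.1 to the mm10 reference, counted intronic reads, and deposited filtered matrices of UMI counts per gene and nucleus. Barcode and gene lists hold no measurement. Lanes are technical repeats, so no test, p-value or standard error was computed between conditions.

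The members and gene lists were chosen with earlier results of these data known. Nuclei with fewer than 500 genes or more than 5% mitochondrial UMIs were left out, and doublet-like nuclei were marked by nearness to simulated doublets at 0.4% per 1000 nuclei. Marker UMIs, smoothed over 20 neighbours on 30 principal components of 2000 variable genes (members and related list left out), gave each nucleus a class. The thresholds of these scores were set after marker levels were seen, 4.16% of nuclei lay near one, and 55.3% (microglia) to 99.6% of a type had the same name by Louvain cluster (resolution 0.5). A further 20904 glutamatergic nuclei had no layer type and count only in the class.

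UMIs were summed per lane and type. CPM are counts per 1000000 UMIs of the type, and log2 ratios add the 2 lanes of a pool and are scaled by TMM factors (edgeR 4.0.16, R 4.3.3). Ratios with the RNA of other nuclei subtracted kept these factors and were then shifted to put the median of all genes measured at 0. Non-overlap in the size rule was judged after TMM scaling, with 0.5 as the minimum absolute log2 ratio and 10 CPM as the minimum mean. Intervals are 95% and cover counting error only. The limit of a count of 0 uses 3 counts. In data simulated for the 3 main classes with 200 changed genes, 89% (glutamatergic, 7154 genes), 91.5% (PV-IN, 7444) and 94% (Sst-IN, 7315) were recovered. Recovery of differences as small as the ratios of the members, or in the presence of differences between pools of mice, was not tested. Sums and clusters were made in Python 3.11.15 (scikit-learn 1.9.0, scipy 1.17.1, igraph 0.11.9, pandas 2.3.3, matplotlib 3.10.9, numpy 2.4.6), and DESeq2 1.42.0 gave size factors only.

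Named were all members, genes of the related list past the size rule in glutamatergic neurons, PV-INs or Sst-INs, those without UMIs, the 3 genes most like each member, and genes overlapping a member. Ank3, Nfasc, Scn4b and Kcne2 fall outside this rule and were named after their values were seen. Alternatives were plain CPM, DESeq2 size factors, classes from clusters, a stricter margin, a common UMI floor, doublet-like nuclei kept, subtraction of other nuclei's RNA, female or male nuclei, equal weight of layer types, other CPM minimums and each lane left out. Leaving out a cluster with markers of several classes was added after seeing the data. Gene positions came from the GENCODE annotation of GRCm38 and promoter windows from RefSeq on GRCm38.p6. Windows of Scn3a and Hcn3 and protein sequences were not used here. A gene of the related list is not reported here.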

Additional observations from a re-analysis of the deposited data

Results flagged for a closer look

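In 4 cases the log2 ratio of risperidone to saline, scaled by TMM, had opposite signs in 2 groups, with both risperidone lanes beyond both saline lanes in each after that scaling. None of these differences was tested, and each depends on the scaling. Scn3a was at -0.12 in PV-INs and -0.15 in L5 ET neurons against 0.22 in the glutamatergic class, of which L5 ET neurons are part. On plain CPM the lanes of the pools overlapped for Scn3a in both PV-INs and L5 ET neurons. In PV-INs the Scn3a ratio was -0.42 in nuclei called female and 0.097 in those called male, where the lanes overlapped. Scn1a in L6b neurons was at 0.34 in nuclei called female and -0.18 in those called male. The male value rests on 39 and 40 saline and 25 and 26 risperidone UMIs, at 206 and 159 against 179 and 174 CPM, so the lanes overlapped on plain CPM, and the median of all genes measured in those nuclei was -0.14. Scn2a in glutamatergic neurons was at 0.048 in female and -0.035 in male nuclei. On plain CPM the risperidone lanes were higher in both, at 404 and 401 against 396 and 390.1 in male nuclei and 398 and 391 against 358 and 359 in female nuclei, so the opposite sign was absent.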

How the results depend on the processing

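Log2 ratios of Scn1a stayed above 0 and those of Scn8a below 0 in glutamatergic neurons, PV-INs and Sst-INs under each alternative run; Scn2a, Scn3a and Hcn2 changed sign in at least 1. Plain CPM lies above the TMM scale by 0.08 (log2) in glutamatergic neurons, 0.09 in PV-INs and 0.11 in L5/6 NP neurons. No paired analysis was possible because the result comes from no test. Hcn3 and Hcn4 rest on few UMIs in both pools. The cause of the changes below was not tested.

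The median of the members in glutamatergic neurons (-0.00047) was 0.082 on plain CPM, 0.017 with classes from clusters, 0.048 in female and -0.035 in male nuclei, 0.040 with layer types weighted equally, and -0.013 to 0.015 with 1 lane left out. In PV-INs (-0.053) it was 0.040 on plain CPM, -0.014 with doublet-like nuclei kept, -0.0097 in female and 0.097 in male nuclei, -0.0033 with other RNA removed, and -0.080 to -0.018 with 1 lane left out. In Sst-INs (0.013) it was 0.21 in female and -0.19 in male nuclei, 0.080 on plain CPM, and -0.040 to 0.054 with 1 lane left out. It fell below 0 under DESeq2 size factors (-0.0080), classes from clusters (-0.018), doublet-like nuclei kept (-0.0034) and other RNA removed (-0.0059). Each median is the value of 1 gene, which can differ between settings. In Sst-INs that gene was Scn2a in the main setting, Scn1a in female nuclei and Scn3a in male nuclei.

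With a minimum of 1 CPM or none, 1 member was lower by the size rule (main count 0) in glutamatergic neurons and 1 in PV-INs. They were Hcn4 (195 saline and 180 risperidone UMIs) and Hcn3 (53 and 52 UMIs). Shares of all genes that met the rule under these alternatives are not given here. These counts and those of the related list below therefore have no background beside them. In Sst-INs, 1 was lower under DESeq2 size factors, classes from clusters and in female nuclei, and 0 to 1 with 1 lane left out. In Sst-INs that member was Scn8a, and its call with a lane left out was without the first saline lane.

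Of the related list, the lower count in glutamatergic neurons (1, Sptbn4) was 0 on plain CPM, in male nuclei and with layer types weighted equally. It was 2 under DESeq2 size factors, in female nuclei and at a minimum of 1 CPM, 3 with no minimum, and 1 to 2 with 1 lane left out (2 without the second risperidone lane). The higher count was 1 with no minimum. In PV-INs, 1 gene was lower with the mixed cluster left out, with other RNA removed and at a minimum of 1 CPM or none, and 0 to 1 with 1 lane left out (1 without the second saline or first risperidone lane). The higher count there (1, Scn9a) was 2 in male nuclei, with other RNA removed and with no minimum, and 0 at 50 CPM. In Sst-INs, 1 gene was higher in female nuclei, in male nuclei and at a minimum of 1 CPM or none, and 0 to 1 with 1 lane left out (1 without the second risperidone lane). The Hcn2 ratio in the vascular class (0.89) turned to -0.28 in male nuclei.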
